A study of Homo sapiens with 48 samples.

Results

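The cholesterol synthesis enzymes named for this account are HMGCS1, MVD, IDI1, FDPS, FDFT1, SQLE, LSS and DHCR7, in the order in which they act. K562 cells, a human leukaemia line with the BCR-ABL1 fusion, were kept for 24 hours in 1 micromolar imatinib, which inhibits that kinase, or mock treated. Every probe set annotated to a member symbol and to no other gene was taken, which gave 14 of 22215 tested probe sets and 7 of 11963 genes. FDFT1, squalene synthase, had no annotated probe set in the table used and was not analysed here. The 48 samples carry 8 letters, A to H, called sets, and each set holds 3 imatinib and 3 mock samples. No label explains the letters or says whether replicates were grown apart, so p-values reflect only the scatter of these samples, possibly technical. All groups are the same cell line, and imatinib is the only agent the labels name. The keyword line of the imatinib samples also reads mock treated, and their title and description, which give imatinib, were followed.

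Cholesterol is built from acetyl-CoA through mevalonate and isoprenoid pyrophosphates to squalene, which is closed into lanosterol and trimmed to cholesterol. Isoprenoids leave the pathway on the way, among them the lipid anchors of RAS and RAB proteins and the side chains of ubiquinone and dolichol. Most genes of the pathway are targets of the transcription factor SREBP2, which is released from the endoplasmic reticulum when membrane sterol is low, and the NF-Y factor, which binds CCAAT, is known to act beside SREBP on several of their promoters. Dividing leukaemia cells need sterol for new membrane.

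Imatinib samples had lower transcript levels of 4 of the 7 measured enzymes, HMGCS1, IDI1, FDPS and DHCR7, in each of the 8 sets. Changes were common, since 27.1% of all genes passed the limma test as lower and 41.6% as higher, by 1 probe set each. Of all probe sets, 6.57% passed as lower in every set when the sets were fitted separately. HMGCS1 fell to 42.5%, IDI1 to 43.5%, DHCR7 to 48.7% and FDPS to 63.8% of the mock level. SQLE rose to 117% of the mock level, and MVD and LSS, with 96.7% and 104% of it, did not pass the test on their brightest probe sets. The genes that fell thus act in the mevalonate stretch, HMGCS1, IDI1 and FDPS, and at the last steps, DHCR7, while no fall was called for MVD, SQLE or LSS.

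RNA isolation differed between treatments in every set, per the labels: a column kit alone for imatinib samples, against Trizol followed by that kit for mock samples. Treatment and isolation cannot be told apart in these data. Values are log2 levels, and the mean level over probe sets lay between 5.89 and 7.60 in the 8 sets while differing by at most 0.053 within a set, so levels were compared within sets only. A bulk level cannot tell fewer transcript-bearing cells from less RNA per cell. The added poly-A spike transcripts, of which imatinib samples received a smaller amount, were lower in imatinib samples by 0.29 ± 0.14 log2 (SD, n = 8 sets). Every set showed this direction (two-sided exact sign-flip permutation p = 0.00781, the smallest that 8 sets can give, adjusted over 4 comparisons 0.0312). The hybridisation spikes had a change of -0.09 ± 0.29 (exact permutation p = 0.398, adjusted 0.531). The gap between the 3 prime and 5 prime control probe sets, a sign of RNA quality, was wider in imatinib samples by 0.15 ± 0.19 log2 for ACTB (exact permutation p = 0.0469, adjusted 0.0938) and by 0.02 ± 0.08 for GAPDH (exact p = 0.531). Levels of these control probe sets were themselves lower in imatinib samples in 8 of 8 sets. Their 3 prime and 5 prime changes were -0.29 and -0.45 log2 for ACTB and -0.16 and -0.18 for GAPDH. The part of all these controls in the changes below was not tested. All 8 measured K562 markers, among them the embryonic globin gene HBE1, GATA1 and TFRC, were at least as bright as the median probe set, and all 8 were higher after imatinib. Their summed level was 183% to 299% of the mean of the mock samples of the set in imatinib samples, and 95.1% to 104% in mock samples. This sum is of unlogged levels, and the single markers differed widely. Their log2 changes ran from 0.14 for BCR to 3.13 for HBZ, with 1.04 for HBE1, 0.35 for GATA1 and 0.21 for TFRC. Of other cell types, 3 of 4 T cell, 1 of 2 B cell, 2 of 2 fibroblast, 0 of 3 liver and 0 of 4 monocyte and granulocyte markers were that bright. The summed T cell markers were at 44.0% to 91.0% of that mock mean in imatinib samples and 85.5% to 119% in mock samples, with CD3D lower (a change of -1.73), CD3E higher (0.17) and CD2 and CD8A not called. Of the other lists, both fibroblast, 2 of 3 liver, 1 of 2 B cell and 2 of 4 monocyte and granulocyte markers were called higher. LYZ, of the last list, was called lower. Among all genes, 41.6% were called higher and 27.1% lower. With arrays centred on their median, 0 B cell and 0 monocyte and granulocyte markers were called higher. The median summed level in imatinib samples was 114% of the mock mean of the set for fibroblast markers and 112% for liver markers, against 102% and 101% in mock samples. The part of these markers in the results was not tested.

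Promoters are shown for HMGCS1 and FDPS, whose transcripts fell, and for MVD and LSS, which did not pass the test, because the letters that NF-Y reads are in each window shown. Each line gives the 250 bases before the transcript start in the RefSeq table of build GRCh38.p14, 5′ to 3′ on the gene's strand, with CCAAT on either strand (CCAAT or ATTGG) in capitals. HMGCS1 is at chr5:43313413-43313662 on the minus strand, FDPS at chr1:155308616-155308865 on the plus strand, MVD at chr16:88663092-88663341 on the minus strand and LSS at chr21:46228775-46229024 on the minus strand.
HMGCS1: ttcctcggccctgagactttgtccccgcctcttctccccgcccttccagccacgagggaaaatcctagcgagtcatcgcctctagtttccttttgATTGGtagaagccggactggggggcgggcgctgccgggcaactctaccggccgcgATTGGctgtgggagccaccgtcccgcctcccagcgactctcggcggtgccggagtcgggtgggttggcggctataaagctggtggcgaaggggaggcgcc
FDPS: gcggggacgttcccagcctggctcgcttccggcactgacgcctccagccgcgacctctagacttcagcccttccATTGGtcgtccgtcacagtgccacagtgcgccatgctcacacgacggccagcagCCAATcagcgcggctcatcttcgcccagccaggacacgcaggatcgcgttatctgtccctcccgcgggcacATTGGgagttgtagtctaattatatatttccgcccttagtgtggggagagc
MVD: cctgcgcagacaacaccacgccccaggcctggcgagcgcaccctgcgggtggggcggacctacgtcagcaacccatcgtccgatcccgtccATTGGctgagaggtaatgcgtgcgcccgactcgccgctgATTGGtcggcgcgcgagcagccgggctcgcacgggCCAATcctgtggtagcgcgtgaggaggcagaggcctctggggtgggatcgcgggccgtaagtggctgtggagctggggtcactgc
LSS: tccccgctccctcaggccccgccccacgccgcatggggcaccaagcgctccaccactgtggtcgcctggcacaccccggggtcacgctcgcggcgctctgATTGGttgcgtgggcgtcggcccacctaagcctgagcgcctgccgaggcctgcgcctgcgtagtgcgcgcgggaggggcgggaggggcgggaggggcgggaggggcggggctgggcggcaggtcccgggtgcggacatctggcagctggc
The HMGCS1 window shown held 2 matches, centred 98 and 153 bases before the start, and that of the other HMGCS1 start, at chr5:43313182-43313431, held 0. The FDPS window held 3, at 49, 120 and 174 bases, the MVD window 3, at 83, 118 and 157 bases, and the LSS window 1, at 148 bases.

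The RefSeq table gave 10 such windows for 6 of the 8 named genes, since HMGCS1 and DHCR7 have 2 starts each and IDI1 has 3. All 6 genes had CCAAT in at least 1 window, and 7 of the 10 windows held it, against 32.0% of all 35116 windows of the same length. At least 2 matches were in 6 of the 10 windows, against 9.5% of all windows. The letters were thus in windows of genes that fell and of genes that did not. The sterol regulatory letters TCACNCCAC, on either strand, were in 0 of the 10 windows and in 0.9% of all. GGGCGG, the letters of the GC box read by SP1, were in 9 of the 10 and in 42.6% of all. Windows of the same gene can overlap, no overlap between these motifs was removed, and a match of letters is a description of the sequence.

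In the test of 24 imatinib against 24 mock samples, 7 of the 14 member probe sets were lower and 3 were higher at an adjusted p of 0.05 (limma, Benjamini-Hochberg over all probe sets). Over all 22215 probe sets, 65.2% passed the test, 25.8% as lower and 39.3% as higher. With 1 probe set per gene, 4 of the 7 members were lower and 1 was higher, against 27.1% lower and 41.6% higher among all genes. The median change of the 7 genes was -0.65 log2, and that of all genes was 0.05. After quantile normalization within sets the members' split was 7 lower and 6 higher, with 25.9% of all probe sets lower and 33.3% higher. With arrays centred on their median it was 7 lower and 2 higher, with 29.9% of all probe sets lower and 27.9% higher. Lower calls then made up 51.7% of the calls over all probe sets, against 39.6% of them as deposited. At least 2-fold lower were 5 of the 14 member probe sets, against 2.14% of all.

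**Figure D1:**
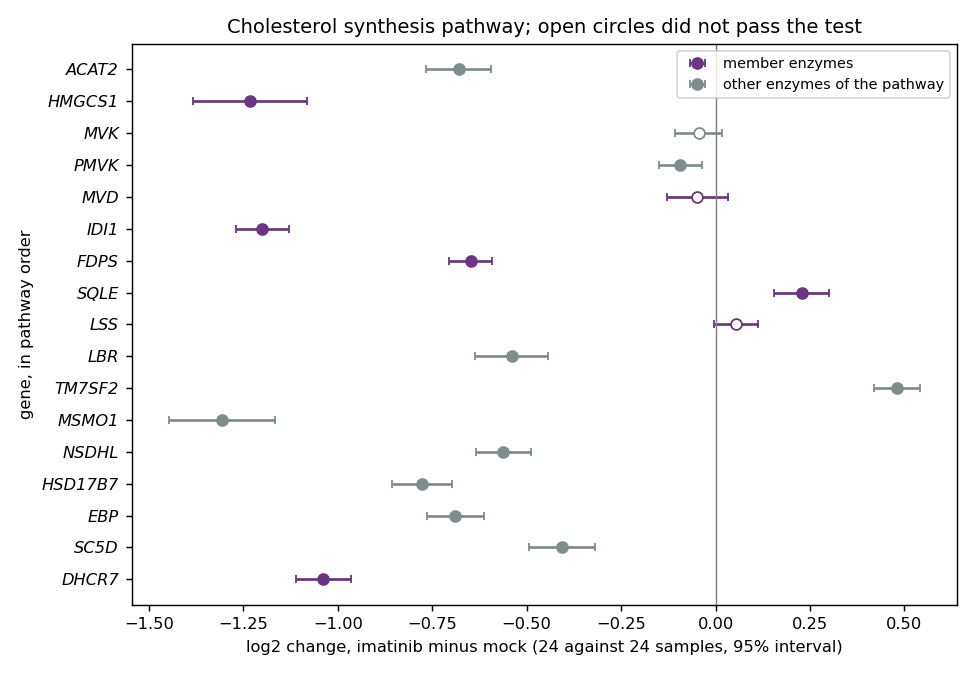
Log2 change (imatinib minus mock, 24 against 24 samples, with 95% intervals) of 17 genes of cholesterol synthesis in pathway order, each by its brightest probe set; filled circles passed an adjusted p of 0.05. The 12 lower genes lie left of 0, SQLE and TM7SF2 lie right of it, and MVK, MVD and LSS have intervals that include 0.

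HMGCS1 joins acetyl-CoA to acetoacetyl-CoA and so makes HMG-CoA, the precursor of mevalonate. Relative to the mock mean of their own set, levels of its brighter probe set, 205822_s_at, ran from -1.90 to -0.39 with a median of -1.30 in the 24 imatinib samples, against -0.53 to 0.47 with a median of -0.03 in the 24 mock samples. Every imatinib sample was below every mock sample of its set in 7 of 8 sets, and set B was the exception. The level fell by 1.23 ± 0.07 log2 (SE, n = 24 per treatment, limma adjusted p = 7.8e-20). The fall was largest in set C, with 8.17, 8.29 and 7.85 in imatinib samples, against 9.69, 9.82 and 9.74 in mock samples. It was smallest in set B, with 9.08, 9.55 and 9.25 in imatinib samples, against 10.11, 10.30 and 9.41 in mock samples. Mock replicate 3 stood below the other mock samples of set B, and without it the change there was -0.91 in place of -0.65. At the other end, without mock replicate 2 it was -0.47 and the call was lost (limma adjusted p = 0.0953).

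The dimmer HMGCS1 probe set, 221750_at, fell by 0.92 ± 0.06 log2 (SE, n = 24 per treatment, limma adjusted p = 7.73e-18) and was called lower in 7 of 8 sets. Its smallest fall was in set A, with 7.53, 7.44 and 7.58 in imatinib samples, against 7.61, 8.02 and 8.13 in mock samples, a change of -0.41. The brighter probe set had a change of -1.40 in that set. In set B the order was the other way round, -1.12 for the dimmer and -0.65 for the brighter probe set. The brighter probe set had the larger fall in 6 of 8 sets, by a mean difference of -0.32 ± 0.45 (SD, n = 8 sets). Whether the 2 probe sets differ was not tested.

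MVD decarboxylates mevalonate pyrophosphate to isopentenyl pyrophosphate. Levels of its probe set, 203027_s_at, taken against the mock mean of the set, ran from -0.54 to 0.24 with a median of -0.06 in imatinib samples, against -0.35 to 0.27 with a median of 0.01 in mock samples, and the groups overlapped over most of that range. The log2 change was -0.05 ± 0.04 (SE, n = 24 per treatment, limma adjusted p = 0.295), with a 95% interval of -0.13 to 0.03. It was below 0 in 6 of 8 sets and passed the limma test in 0 of them, with 0 also at an unadjusted p under 0.05. Set F gave the lowest value, a change of -0.31, with 7.17, 7.61 and 7.42 in imatinib samples, against 7.36, 7.98 and 7.79 in mock samples. Set B gave the highest, 0.17, with 9.03, 8.93 and 8.92 in imatinib samples, against 8.59, 8.91 and 8.87 in mock samples. The interval over all samples does not reach the change of -0.65 measured for FDPS, while that of set F alone, -0.69 to 0.07, does. Both reflect only the scatter of these samples on 1 probe set.

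IDI1 turns isopentenyl pyrophosphate into dimethylallyl pyrophosphate, the starter unit of all isoprenoids. Relative to the mock mean of the set, levels of probe set 208881_x_at ran from -1.40 to -0.89 with a median of -1.22 in imatinib samples, against -0.21 to 0.18 with a median of 0.04 in mock samples. The groups were apart in every set, with no imatinib sample near a mock sample. The level fell by 1.20 ± 0.04 log2 (SE, n = 24 per treatment, limma adjusted p = 2.43e-32). Set C had the largest fall, with 9.49, 9.53 and 9.54 in imatinib samples, against 10.81, 10.89 and 10.94 in mock samples. Set F had the smallest, with 9.94, 9.97 and 10.05 in imatinib samples, against 11.11, 10.97 and 10.73 in mock samples, a change of -0.95.

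The other IDI1 probe set, 204615_x_at, fell by 1.21 ± 0.03 log2 (SE, n = 24 per treatment, limma adjusted p = 3.3e-33). The pair differed by 0.01 ± 0.06 over the 8 sets (SD), the closest of any gene with more than 1 probe set. Both carry the suffix x, which Affymetrix gives to probe sets that can also detect related sequences, so a part of the signal may come from other transcripts.

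FDPS condenses the isoprenoid units to farnesyl pyrophosphate, the branch point to sterols, ubiquinone, dolichol and prenylated proteins. Levels of 201275_at, on the same relative scale, ran from -0.87 to -0.33 with a median of -0.67 in imatinib samples, against -0.08 to 0.13 with a median close to 0 in mock samples. The groups were apart in every set. The level fell by 0.65 ± 0.03 log2 (SE, n = 24 per treatment, limma adjusted p = 2.42e-25). The largest fall was in set C, with 9.96, 9.86 and 9.78 in imatinib samples, against 10.66, 10.63 and 10.61 in mock samples. The smallest was in set F, with 9.43, 9.41 and 9.62 in imatinib samples, against 10.01, 10.06 and 9.97 in mock samples. FDPS had the smallest spread of the change over sets among the brightest probe sets of the 7 genes, an SD of 0.08 around a range of -0.76 to -0.53.

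**Figure D2:**
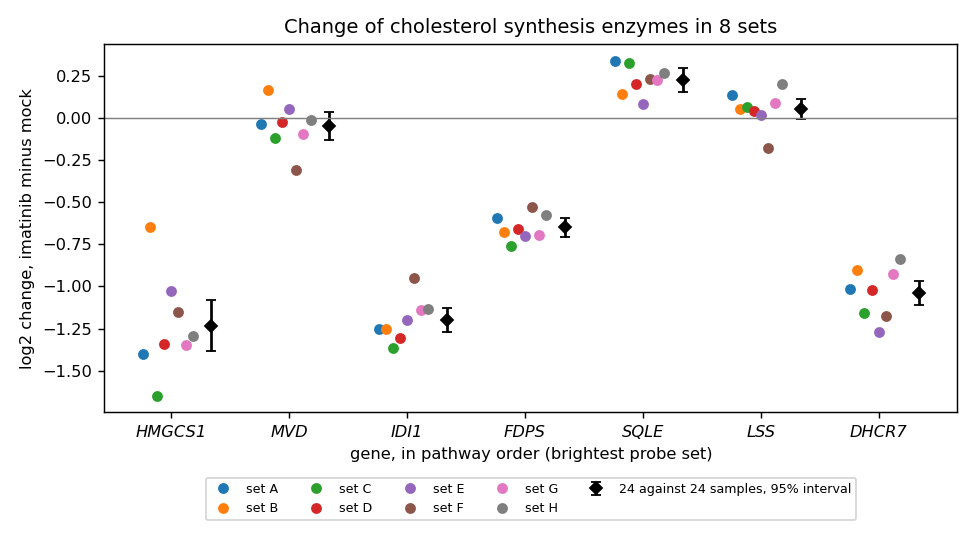
Log2 change (imatinib minus mock) of the brightest probe set of each of the 7 enzymes within each set (coloured points, 3 against 3 samples) and over all sets (black diamonds, 95% intervals). Points of HMGCS1, IDI1, FDPS and DHCR7 lie below 0 in all 8 sets and those of SQLE above 0 in all 8, while MVD and LSS have sets on both sides.

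SQLE adds an oxygen to squalene, the first oxygen-requiring step of sterol synthesis. Relative to the mock mean of the set, levels of its brightest probe set, 209218_at, ran from -0.15 to 0.47 with a median of 0.23 in imatinib samples, against -0.14 to 0.15 with a median of -0.01 in mock samples, and the groups were apart in 6 of 8 sets. The level rose by 0.23 ± 0.04 log2 (SE, n = 24 per treatment, limma adjusted p = 3.41e-07), above 0 in 8 of 8 sets and called in 4. Set A had the largest rise, with 10.39, 10.47 and 10.59 in imatinib samples, against 10.00, 10.13 and 10.29 in mock samples. Set E had the smallest difference, 0.08, with 10.11, 9.74 and 9.81 in imatinib samples, against 9.93, 9.74 and 9.73 in mock samples. The dimmer SQLE probe sets showed less. Probe set 213577_at rose by 0.09 ± 0.03 (limma adjusted p = 0.00547), a call lost with arrays centred on their median, and 213562_s_at changed by 0.085 ± 0.05, which missed the threshold (limma adjusted p = 0.163). With the mean over the 3 probe sets, SQLE rose by 0.13 (limma adjusted p = 6.72e-05). A called fall of SQLE was thus seen in none of its 3 probe sets.

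LSS closes oxidosqualene into lanosterol, the first sterol. Relative to the mock mean of the set, levels of its brightest probe set, 202245_at, ran from -0.36 to 0.29 with a median of 0.07 in imatinib samples, against -0.07 to 0.14 with a median close to 0 in mock samples. The groups overlapped in 7 of 8 sets. The log2 change was 0.05 ± 0.03 (SE, n = 24 per treatment, limma adjusted p = 0.0939), with a 95% interval of -0.0037 to 0.11. It was above 0 in 7 of 8 sets, and set F, at -0.18, was the exception, with 9.36, 9.02 and 9.21 in imatinib samples, against 9.38, 9.32 and 9.41 in mock samples. Set H was highest, with 10.01, 10.08 and 10.19 in imatinib samples, against 9.86, 9.88 and 9.93 in mock samples. The call depended on scaling: after quantile normalization within sets LSS rose by 0.20 (limma adjusted p = 4.26e-09), and without set F it rose by 0.09 (limma adjusted p = 0.00392). With the mean over its 3 probe sets in place of the brightest, LSS rose by 0.27 (limma adjusted p = 5.36e-10).

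The probe sets of LSS disagreed. The dimmest, 211018_at, whose mean level was at or above only 26.1% of all probe sets, rose by 0.65 ± 0.06 log2 (SE, n = 24 per treatment, limma adjusted p = 6.07e-14) and lay above the mock samples in every set. In set G it had 6.66, 6.58 and 6.51 in imatinib samples, against 5.11, 5.26 and 5.49 in mock samples. In set D it had 5.32, 5.08 and 5.19 in imatinib samples, against 4.90, 4.81 and 4.85 in mock samples. The remaining probe set, 211019_s_at, differed by 0.12 ± 0.05, short of the threshold (limma adjusted p = 0.0513). The annotation ties 211018_at and 211019_s_at to the same sequence record. Which LSS transcripts each detects was not given in the sources used here, so the rise of the dimmest probe set was not carried over to the gene.

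DHCR7 reduces the last ring bond in the making of cholesterol. Relative to the mock mean of the set, levels of its brighter probe set, 201790_s_at, ran from -1.55 to -0.76 with a median of -1.04 in imatinib samples, against -0.18 to 0.14 with a median of 0.01 in mock samples. The groups were apart in every set. The level fell by 1.04 ± 0.04 log2 (SE, n = 24 per treatment, limma adjusted p = 2.77e-29). Set E had the largest fall, with 8.30, 7.82 and 8.20 in imatinib samples, against 9.28, 9.45 and 9.40 in mock samples. Set H had the smallest, with 9.29, 9.29 and 9.41 in imatinib samples, against 10.07, 10.16 and 10.27 in mock samples. The other probe set, 201791_s_at, fell by 1.19 ± 0.04 (limma adjusted p = 2.16e-30) and had the larger fall in 7 of 8 sets.

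**Figure D3:**
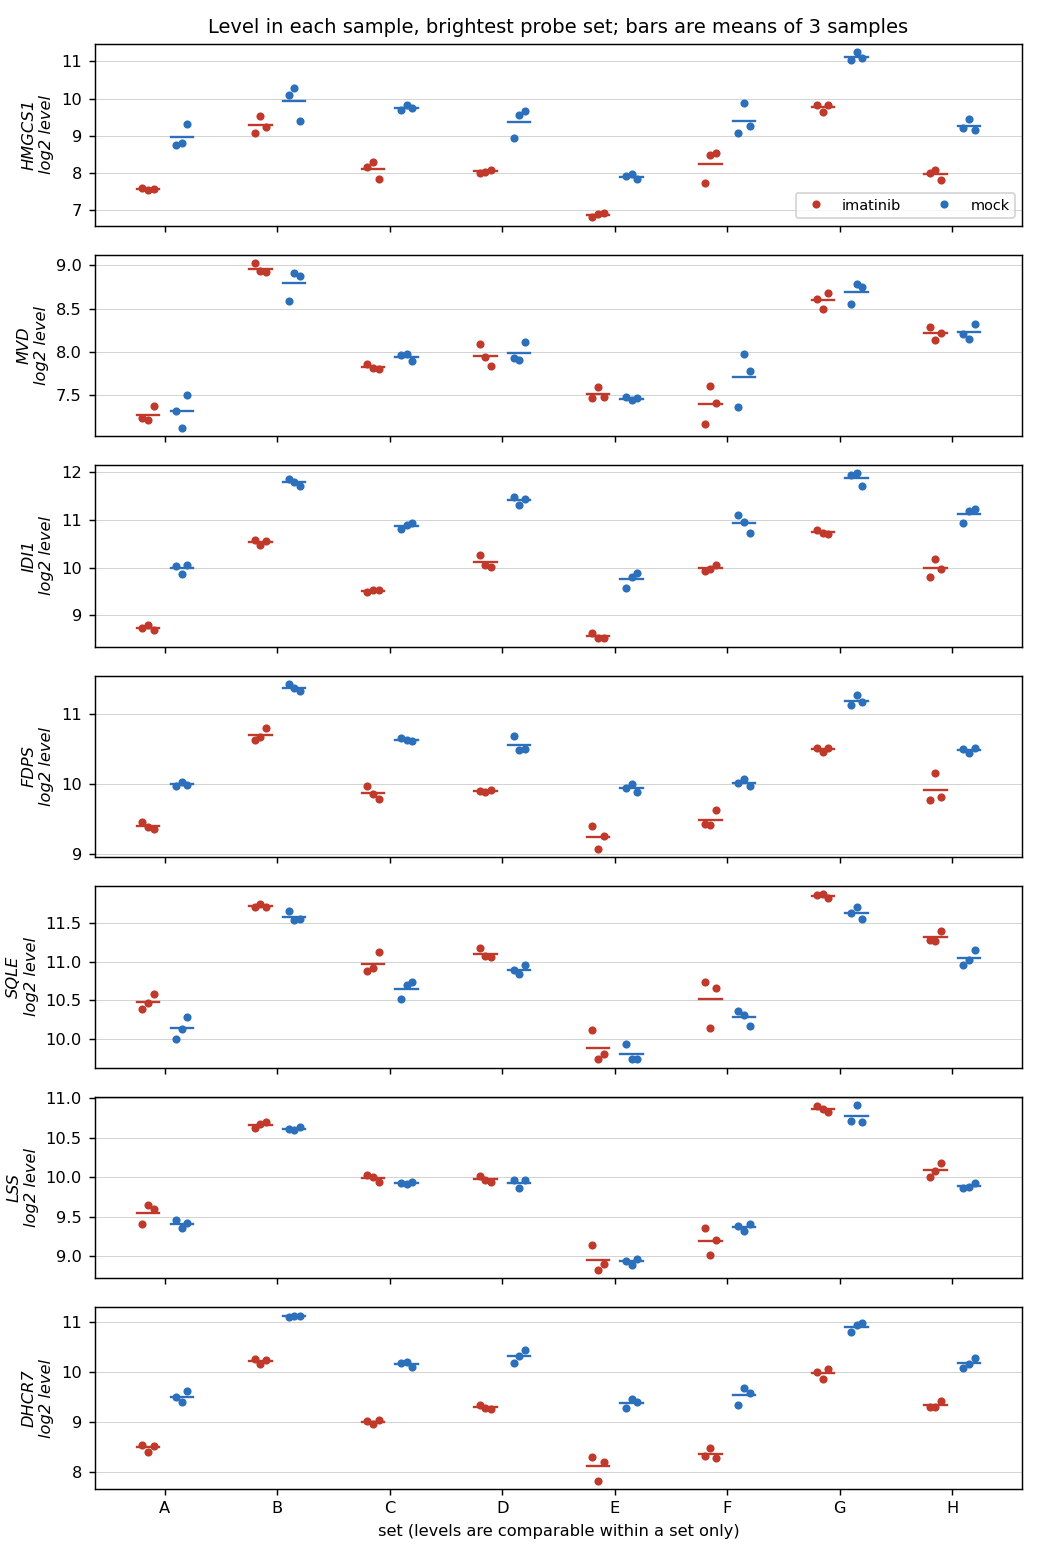
Log2 level of the brightest probe set of each enzyme in all 48 samples, by set, with imatinib samples in red left of mock samples in blue and bars at the means of 3. IDI1, FDPS and DHCR7 have every imatinib sample below every mock sample in all 8 sets, HMGCS1 in 7, and MVD and LSS overlap in most sets.

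Fitted alone, 3 samples against 3, each set called 7 member probe sets lower, except set F with 6. Over all probe sets the share called lower, in letter order of the sets, was 14.7%, 19.9%, 20.1%, 18%, 12.1%, 9.47%, 16% and 11.8%. Called higher were 3 member probe sets in sets A and H, 2 in sets C and D, 1 in sets B, F and G, and 0 in set E. The shares of all probe sets called higher, in the same order, were 13.6%, 27.8%, 18.9%, 20.9%, 7.24%, 7%, 11.5% and 12.3%. The 0 of set E came from limma with Benjamini-Hochberg adjustment, and 1, the dimmest LSS probe set, had an unadjusted p under 0.05 there.

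Called lower in all 8 sets were 6 of the 14 member probe sets, those of IDI1, FDPS and DHCR7 and the brighter of HMGCS1, against 6.57% of all probe sets. Called higher in all 8 sets by limma were 0, against 3.94% of all, and at an unadjusted p under 0.05 it was 1, the dimmest of LSS. Every imatinib sample was below every mock sample in all 8 sets for 5 member probe sets, against 8.6% of all, and above in all 8 sets for 1, the dimmest of LSS, against 5.43% of all. The median change of the 7 genes lay between -0.76 in set C and -0.53 in set F.

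**Figure D4:**
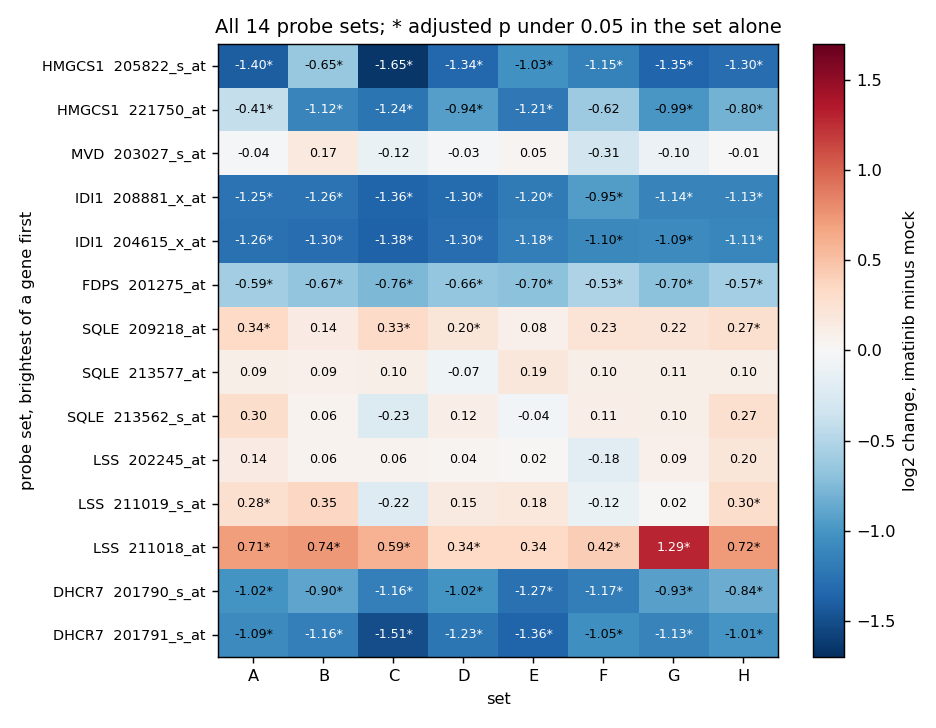
Log2 change (imatinib minus mock) of each of the 14 probe sets in each set, blue for lower and red for higher, with an asterisk where the adjusted p was under 0.05 in that set alone. Rows of HMGCS1, IDI1, FDPS and DHCR7 are blue throughout, rows of MVD and SQLE are pale, and the dimmest LSS probe set is red in all sets with 1.29 in set G.

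In the order of change the brightest probe sets ran HMGCS1, IDI1, DHCR7, FDPS, MVD, LSS and SQLE. HMGCS1 and IDI1 differed by -0.03 ± 0.30 log2 (SD, n = 8 sets) and IDI1 and DHCR7 by -0.16 ± 0.20, each with the first gene lower in 6 of 8 sets. The SD here is the spread of single sets and not the error of the mean, and no step was tested. DHCR7 had a larger fall than FDPS in 8 of 8 sets, by -0.39 ± 0.16, and FDPS a lower change than MVD in 8 of 8 sets, by -0.60 ± 0.18. MVD and LSS differed by -0.10 ± 0.12, with MVD lower in 6 of 8 sets, and LSS was below SQLE in 8 of 8 sets, by -0.17 ± 0.12. The widest step in the order was thus the one between FDPS and MVD. Probe sets differ in how strongly they respond to a given change of transcript, so these steps are differences of measured changes.

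Whether the change differed between sets was tested with the set-by-treatment terms. It did for 2 of the 14 member probe sets, the dimmer of HMGCS1 (limma F test adjusted p = 0.0385) and the dimmest of LSS (adjusted p = 0.0013), against 7.2% of all probe sets. Their changes ran from -1.24 in set C to -0.41 in set A for HMGCS1 and from 0.34 in set D to 1.29 in set G for LSS. With arrays centred on their median the HMGCS1 probe set no longer passed (adjusted p = 0.0542).

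After the treatment and set means were removed, the deviations of the 7 brightest probe sets over the 48 samples correlated weakly. Pearson r over the 21 pairs ran from -0.264 for HMGCS1 with LSS to 0.623 for SQLE with LSS, with a mean of 0.141, against 0.015 over all pairs of genes. MVD with DHCR7 had 0.532 and HMGCS1 with MVD 0.448. Deviations of 1 array are shared by all its probe sets, so these values are a description. Outside the members, the 5 of 11956 genes whose set-centred levels over the 48 samples were most like the mean of the 7 were VCL (r = 0.985), UBE2S (0.984), PLXNA1 (0.983), HSPA9 (0.983) and PRMT1 (0.982). Each was lower in imatinib samples in all 8 sets, with changes between -1.81 for PLXNA1 and -1.21 for HSPA9, and the treatment is shared by all these points. With the treatment means removed the same 5 had r between 0.498 for PRMT1 and 0.629 for HSPA9. These 5 were picked for a high r over the same samples, which can raise the remaining r. The values therefore do not show that the genes vary together apart from treatment.

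The other measured enzymes of the pathway were lower too, except MVK on its brightest probe set and TM7SF2, which has sterol C14 reductase activity. Of 14 further genes listed, 10 had a probe set, and 8 of these were lower and 1 was higher, with a median change of -0.55 log2. Over all genes, 27.1% were lower and 41.6% were higher, with a median of 0.05. At the entry, ACAT2, which makes acetoacetyl-CoA, fell by 0.68 ± 0.04 log2 (SE, n = 24 per treatment). MVK and PMVK phosphorylate mevalonate between HMGCS1 and MVD. PMVK fell by 0.09 ± 0.03 (limma adjusted p = 0.00389), and MVK had a change of -0.04 ± 0.03 on its brightest probe set that did not pass (adjusted p = 0.206), although its dimmer probe sets fell by 0.23 and fell by 0.36. With arrays centred on their median MVK was called lower, at -0.08, and after quantile normalization its change was 0.07 and did not pass. On their brightest probe sets MVK, PMVK and MVD thus had changes closer to 0 than the enzymes just before and after them, HMGCS1 and IDI1.

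Of the enzymes below lanosterol, MSMO1, which removes the methyl groups at carbon 4, fell by 1.31 ± 0.07 log2 (SE, n = 24 per treatment, limma adjusted p = 5.57e-22). HSD17B7 and NSDHL, which act beside it, fell by 0.78 ± 0.04 and fell by 0.56 ± 0.04. The isomerase EBP fell by 0.69 ± 0.04 and the desaturase SC5D fell by 0.41 ± 0.04. The dimmer SC5D probe set, with a change of -0.02, was not called (limma adjusted p = 0.723). The enzymes with C14 reductase activity moved apart: LBR, also a lamin-binding protein of the nuclear membrane, fell by 0.54 ± 0.05, while TM7SF2 rose by 0.48 ± 0.03 and was called higher in 8 of 8 sets. The probe set of HSD17B7 carries the suffix x. Every called change of these genes had the same sign with centred arrays and after quantile normalization, and PMVK did not pass with 1 value per set (adjusted p = 0.0538).

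Genes that use or control the pathway were called in both directions, as were all genes (27.1% lower and 41.6% higher). Of 11 measured genes of the isoprenoid branches, 7 were lower and 2 higher, with a median of -0.28. RABGGTB and RABGGTA, subunits of the enzyme that prenylates RAB proteins, moved apart, with a fall of 0.85 ± 0.04 and a rise of 0.50 ± 0.03 log2. PDSS1, which builds the ubiquinone side chain, fell by 0.69 ± 0.04, and GGPS1, which makes geranylgeranyl pyrophosphate, fell by 0.50 ± 0.03. The dimmer GGPS1 probe set, with a change of -0.07, was not called (limma adjusted p = 0.126). Of 9 measured genes of SREBP regulation, 5 were lower and 3 higher, with a median of -0.14, so the share called higher was below that of all genes. INSIG1, which retains SREBP in the endoplasmic reticulum and is itself an SREBP target, fell by 0.87 ± 0.04. INSIG2, with a mean level at or above only 44.5% of all probe sets, fell by 0.61 ± 0.05. SREBF1 rose by 0.57 ± 0.03. MBTPS1, the protease that makes the first cut in SREBP, fell by 0.27 ± 0.04. SREBF2, which encodes SREBP2, is not among the 4 named by smallest p and is given for its role, with its values known: its brightest probe set rose by 0.10 ± 0.04 (limma adjusted p = 0.0263), a call lost with centred arrays, and its dimmer one rose by 0.33.

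Of 7 measured genes of sterol uptake and transport, 3 were lower and 1 was higher, with a median of 0.02 as deposited and -0.02 with centred arrays, where 27.1% of all genes were lower and 41.6% higher as deposited. SCARB1, a receptor for high density lipoprotein, fell by 1.42 ± 0.04 log2 (SE, n = 24 per treatment, limma adjusted p = 1.04e-32). NPC1 and NPC2, which carry cholesterol out of lysosomes together, moved apart: NPC1 fell by 0.59 ± 0.04 and NPC2 rose by 1.12 ± 0.03. OSBP, a sterol exchange protein, fell by 0.24 ± 0.03. Of 9 measured genes of sterol esterification, efflux and the LXR receptors, 4 were higher and 1 was lower, close to the 41.6% higher among all genes, with a median of 0.09, a split of 3 and 2 under both other scalings, and only 3 of the 9 were at least as bright as the median probe set. MYLIP, a ubiquitin ligase that removes lipoprotein receptors, rose by 0.51 ± 0.04. SOAT1, which esterifies cholesterol, fell by 0.29 ± 0.06, and ABCG1, a sterol exporter, and CYP27A1, a sterol hydroxylase, rose by 0.14 ± 0.04 and by 0.13 ± 0.04. SOAT1 and this ABCG1 probe set were dim, with mean levels at or above only 19.3% and 35.6% of all probe sets. The dimmer ABCG1 probe set, with a change of 0.02, was not called (limma adjusted p = 0.34).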

How the data were processed

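RNA of 48 samples was measured on Affymetrix arrays from about 8 micrograms of total RNA, per the labels. The authors deposited 1 log2 value per probe set and sample, a scale inferred from the deposited values, which lie between 2.41 and 14.9. How background was corrected, probes summarised and arrays normalized is not given in the sources used here. Leaving out 68 control probe sets, 22215 were tested. A single gene symbol was annotated for 19065 of them, several for 1043 and none for 2107, and symbols were updated through the RefSeq table of GRCh38.p14 (19053 matched). A gene was represented by its brightest probe set where 1 value was needed.

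The tests used limma 3.58.1 under R 4.3.3 (two-sided, adjusted p threshold 0.05): over all samples with the set as a factor, within each set, and with set-by-treatment terms. Errors are standard errors of the fit over all samples unless stated. Promoter windows came from the RefSeq promoter table. Fits were tested on simulated data. The members and lists were chosen with earlier results of these data known. Named genes were all members, all measured genes of the further pathway list, and up to 4 genes with the smallest p of each other list. SREBF2 and MARCHF6 were named besides. No signal over background was used here, and the number of arrays limits the precision. Alternatives were other scalings, a level filter, a replicate block, set-level values and leaving out samples or sets.

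In all 8 sets together, same-numbered imatinib and mock samples of a set deviated together with r above 0.1 in 7 of 24 pairs, so the numbers were not taken as pairs. The closest replicates differed by up to 0.671 log2 in a probe set, so none were counted as the same sample. Figures were drawn with matplotlib 3.10.9.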

Additional observations from a re-analysis of the deposited data

Results flagged for a closer look

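The change of the dimmer HMGCS1 probe set, 221750_at, differed between sets by the test of the set-by-treatment terms (limma F test adjusted p = 0.0385), with -1.24 in set C and -0.41 in set A. In set A, mock replicate 1 had 7.61, against 8.02 and 8.13 in the other mock samples, and the change was -0.56 without it. At the other end, it was -0.30 without mock replicate 3. The difference between sets did not pass with arrays centred on their median (adjusted p = 0.0542) or after quantile normalization within sets (adjusted p = 0.0721).

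The change of the dimmest LSS probe set, 211018_at, differed between sets by the same test (limma F test adjusted p = 0.0013), with 1.29 in set G and 0.34 in set D. It passed with centred arrays (adjusted p = 0.00118) and after quantile normalization (adjusted p = 0.00126).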

How the results depend on the processing

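The count of 7 lower member probe sets over all samples was 7 under every alternative run, and the log2 changes of HMGCS1, IDI1, FDPS, SQLE and DHCR7 kept their sign and call. The count of 3 higher probe sets was less stable: it was 6 after quantile normalization within sets and 5 without set C or without set F. After quantile normalization the change of MVD was 0.0096 (adjusted p = 0.859) in place of -0.05. With the mean over the probe sets of a gene, LSS was called, at 0.27, and SQLE was at 0.13 in place of 0.23. Within sets, quantile normalization gave 6 higher probe sets in B, 4 in C, 1 in E and 4 in G, and centred arrays gave 1 in C and 1 in D. With only probe sets at or above the median level there were 0 in B, 1 in C, 1 in D and 0 in F, since the dimmest LSS probe set was not tested. Without 1 sample of a set, the higher count ran from 1 to 4 in A, 1 to 2 in B, 1 to 2 in C, 1 to 3 in D, 0 to 1 in E, 0 to 1 in F, 1 to 2 in G and 1 to 4 in H, and the lower count from 6 to 9 over the sets. The count of probe sets whose change differed between sets was 1 with centred arrays and 1 with the level filter. With the replicate block the higher count of set F was 0, no other member count moved by over 1.5 times, and 14063 probe sets were called in all, against 14478 without it. Causes were not tested beyond the alternatives' own construction. In set B, the call of the brighter HMGCS1 probe set was lost on leaving out any of 4 samples (adjusted p between 0.0574 and 0.0953), as was that of the dimmer in set A (0.054 to 0.0839), alternatives chosen after seeing the data.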

Other observations

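Both IDI1 probe sets and both DHCR7 probe sets fell in every set, and their sets of largest fall were C, C, E and C. Set C also had the largest fall of both HMGCS1 probe sets and of FDPS. Of all sets, it had the highest share of all probe sets called lower, 20.1%, so this need not be particular to these enzymes.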
